A study of Mus musculus with 8 samples.

Results

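A set of 10 genes known for axon growth and for the response of sensory neurons to nerve injury was followed across 2 picked neuron populations from the dorsal root ganglia (DRG) of mice. The 10 genes were Gap43, Basp1, Stmn2, Stmn4, Atf3, Jun, Sox11, Sprr1a, Ecel1 and Npy, taken by symbol from a table of 43372 genes. All 10 were present in the table, and 7 of them were among the 11828 genes with enough counts to be tested. Sprr1a, Ecel1 and Npy did not pass that filter.

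The Sst libraries (4) came from Sst-IRES-Cre mice (genotype Ssttm2.1(cre)Zjh/J) and the Trpv1 libraries (4) from Trpv1-IRES-Cre mice (genotype Trpv1tm1(cre)Bbm/J), all on C57Bl/6. Pups of both lines were injected into the peritoneum at postnatal day 2 with an AAV9 vector whose eGFP or tdTomato reporter is turned on by Cre, so a cell was labelled where Cre had been made, from the Sst or the Trpv1 locus, at any time after infection. Mice of both sexes were used at 3 to 5 weeks of age. Their ganglia were treated with collagenase and dispase and dissociated mechanically, and 150 to 250 fluorescent cells per mouse were collected by hand, to give 4 independent samples of each genotype. Both groups therefore carry Cre, the virus and the dissociation, and neurons that had not been dissociated were not analysed here.

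When a peripheral axon is cut, a DRG neuron switches on a set of growth genes. The transcription factors ATF3, JUN (a subunit of AP-1) and SOX11 are induced early and act on many targets. GAP43 and BASP1 are acidic proteins of the inner membrane of growth cones that associate with cortical actin, and the stathmins STMN2 and STMN4 bind tubulin and regulate microtubule growth. SPRR1A, the membrane protease ECEL1 and the peptide NPY are known in rodents as products that injured sensory neurons make and intact ones hardly make. GAP43, BASP1 and STMN2 are also made by many uninjured adult neurons.

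The 250 bases upstream of the transcript start are given for 4 of the genes. They show where some of the letters that JUN and ATF factors are known to bind stand near 3 genes of the set. Basp1 is given as a called gene that holds none of the motifs searched. Sequences are from RefSeq on GRCm38.p6, 5′ to 3′ in the direction of the gene, and 7 of the 10 genes had an entry. Capitals mark matches, on either strand, to 3 motifs: the AP-1 element TGANTCA, the cyclic AMP response element TGACGTCA, and TGACATCA, the AP-1-like element known from the Jun gene itself. No matches overlapped.
Jun (chr4:95052223-95052472, minus strand): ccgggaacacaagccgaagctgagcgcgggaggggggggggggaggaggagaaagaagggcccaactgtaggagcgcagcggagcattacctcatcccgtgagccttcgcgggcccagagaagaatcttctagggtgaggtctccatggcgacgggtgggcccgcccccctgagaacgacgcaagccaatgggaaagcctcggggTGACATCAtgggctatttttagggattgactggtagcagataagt
Sox11 (chr12:27342719-27342968, minus strand): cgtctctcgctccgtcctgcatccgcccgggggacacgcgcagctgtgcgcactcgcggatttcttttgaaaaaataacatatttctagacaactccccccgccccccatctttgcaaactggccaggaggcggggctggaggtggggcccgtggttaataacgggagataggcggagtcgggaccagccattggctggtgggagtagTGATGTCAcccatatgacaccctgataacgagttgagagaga
Sprr1a (chr3:92485882-92486131, minus strand): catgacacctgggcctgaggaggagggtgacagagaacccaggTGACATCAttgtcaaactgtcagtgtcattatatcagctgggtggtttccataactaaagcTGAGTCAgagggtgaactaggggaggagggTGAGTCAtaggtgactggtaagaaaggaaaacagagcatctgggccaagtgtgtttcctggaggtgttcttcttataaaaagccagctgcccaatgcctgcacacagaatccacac
Basp1 (chr15:25413765-25414014, minus strand): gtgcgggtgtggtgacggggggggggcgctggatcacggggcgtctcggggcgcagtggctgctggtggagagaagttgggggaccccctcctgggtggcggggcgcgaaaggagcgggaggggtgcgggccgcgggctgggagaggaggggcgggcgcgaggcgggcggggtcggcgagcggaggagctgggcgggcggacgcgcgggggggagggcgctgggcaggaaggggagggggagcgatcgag
TGACATCA stood 45 to 38 bases upstream of Jun and, as TGATGTCA on the printed strand, 42 to 35 bases upstream of Sox11. The match at Jun follows from the choice of this motif, which is known from Jun, and is not a finding. Sprr1a held it once, with 2 copies of TGAGTCA beginning 146 and 116 bases upstream. The Basp1 window, which was 78.8% G and C, held none of the 3, nor did those of Atf3, Ecel1 and Npy. Only exact matches were counted. Near its end the Atf3 window holds TTACGTCA, which differs from TGACGTCA by a single letter. That window (chr1:191183334-191183583) lies inside the annotated gene (191170296 to 191218039), so bases upstream of its outermost start were not searched. Among 32851 windows of this length in mouse promoters, 6.75% held TGANTCA, 2.93% held TGACATCA and 1.55% held TGACGTCA.

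The libraries held 7419027 to 12153109 counts each, and mitochondrially encoded genes took 21.7% to 40.2% of them. Markers of sensory neurons were counted in every library. All 4 Sst libraries and Trpv1 replicates 3 and 4 held Xist RNA, while Trpv1 replicates 1 and 2 held Y-linked counts, so sex was partly aligned with genotype. The pituitary hormone genes Gh and Prl were counted in Sst replicate 2 and in Trpv1 replicates 1, 2 and 3, and at most 1 count of either was found in the other 4 libraries. Values below are CPM (read counts scaled to a common library size by TMM) unless said otherwise, and fold changes are Sst over Trpv1.

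The growth cone genes gave the largest differences of the set. Gap43 and Basp1 were both far lower in the Sst libraries, with no overlap between the populations, and Sox11 was lower by a smaller amount. Of the 7 genes tested, these 3 were lower in the Sst libraries and 0 were higher (edgeR quasi-likelihood test, Benjamini-Hochberg adjusted p under 0.05 over all genes), where 3.31% of all genes tested were called lower and 3.04% higher. At an unadjusted p under 0.05 edgeR gave 5 lower and 0 higher. DESeq2 called the same 3 lower and 0 higher, and limma voom called Gap43, Basp1 and Stmn2 lower and 0 higher, without Sox11. With the earlier quasi-dispersion estimator of edgeR, 2 were lower, since Sox11 did not pass.

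Gap43 (chromosome 16, 42248442 to 42340651, minus strand; GRCm38) stood at 32.2, 71.4, 31.0 and 54.0 CPM in Sst replicates 1 to 4, and at 470, 317, 312 and 376 CPM in Trpv1 replicates 1 to 4. The highest Sst library lay far below the lowest Trpv1 library. The means were 47.1 ± 19.3 CPM in Sst libraries, against 369 ± 73.4 CPM in Trpv1 libraries (SD over 4 libraries each, as for every value after ± below). The log2 fold change was -2.98 (SE 0.278, edgeR adjusted p = 1.36e-07), or 7.86-fold more in Trpv1. By p-value it ranked 14 among the 11828 genes. In pooled cells, fewer cells that make a transcript and less of it in each cell cannot be told apart. The call held in all 20 alternative analyses, with log2 fold changes of -3.26 to -2.80.

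Basp1 (chromosome 15, 25363277 to 25413764, minus strand) stood at 29.7, 38.4, 18.7 and 55.6 CPM in Sst replicates 1 to 4, and at 169, 160, 260 and 207 CPM in Trpv1 replicates 1 to 4. Again no Sst library reached the lowest Trpv1 library. The log2 fold change was -2.48 (SE 0.309, edgeR adjusted p = 9.05e-06), 5.59-fold more in Trpv1. The call was lost in 1 of 20 alternatives, the 4 libraries without pituitary hormone counts, of which 3 are Sst and 1 is Trpv1 (log2 fold change -2.54, adjusted p = 0.0852). Marcks, the third gene of this group of cortical actin regulators, named after its values were seen, was also lower, at 8.53 ± 2.63 CPM in Sst libraries, against 38.2 ± 17.2 CPM in Trpv1 libraries (log2 Sst/Trpv1 -2.15, edgeR adjusted p = 0.00867). Its call was lost without Trpv1 replicate 3 (log2 fold change -1.84, adjusted p = 0.0556), in the 6 libraries with Xist (0.0681) and in those without pituitary counts (0.616).

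**Figure D1:**
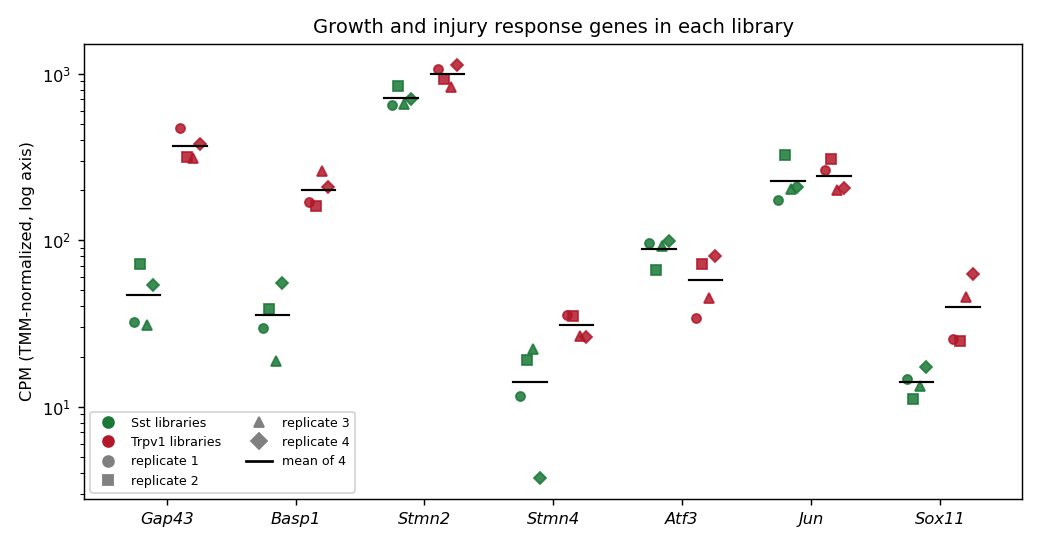
CPM of the 7 tested genes in each library on a log axis, with the Sst libraries left of the Trpv1 libraries for each gene, a marker shape per replicate and a bar at the mean of 4. The 4 Sst values of Gap43 (31.0 to 71.4 CPM) and Basp1 (18.7 to 55.6 CPM) all lie below the Trpv1 values, while those of Jun and Atf3 overlap.

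Neither Stmn2 nor Stmn4 passed in edgeR. Stmn2 (chromosome 3, 8509360 to 8561606, plus strand), the stathmin best known from regenerating motor and sensory axons, was abundant everywhere: it stood at 651, 842, 653 and 700 CPM in Sst replicates 1 to 4 and at 1067, 929, 832 and 1131 CPM in Trpv1 replicates 1 to 4. Only Sst replicate 2 reached into the Trpv1 range. Its log2 fold change of -0.48 (SE 0.170) did not pass in edgeR (adjusted p = 0.0984), and over 20 alternatives it passed only with limma voom and sample weights (log2 fold change -0.52, adjusted p = 0.0321).

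Stmn4 (chromosome 14, 66344296 to 66361680, plus strand) was far scarcer, at 11.6, 19.0, 22.3 and 3.72 CPM in Sst replicates 1 to 4 and 35.3, 34.9, 26.7 and 26.3 CPM in Trpv1 replicates 1 to 4. The groups did not overlap, as for 11.1% of all genes tested, but Sst replicate 4 lay well under the other Sst libraries. The log2 fold change was -1.13 (SE 0.481, edgeR adjusted p = 0.174), and no alternative called it (adjusted p from 0.114 to 0.666).

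Stmn1, the ubiquitous stathmin, was lower in the Sst libraries, at 61.3 ± 17.2 CPM against 163 ± 36.3 CPM in Trpv1 libraries (log2 Sst/Trpv1 -1.41, SE 0.276, edgeR adjusted p = 0.00199). Stmn3, named after its values were seen, had its higher mean in the Sst libraries, at 92.1 ± 22.8 CPM against 54.7 ± 23.8 CPM in Trpv1 libraries, and did not pass (log2 fold change 0.73, edgeR adjusted p = 0.205; 0.118 to 0.806 over the alternatives).

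A ratio of counts within a library does not depend on how libraries are scaled. Gap43 had 0.0474 to 0.0848 counts for each count of Stmn2 in Sst libraries, against 0.332 to 0.440 in Trpv1 libraries. Basp1 had 0.0287 to 0.0794 per count of Stmn2 in Sst libraries, against 0.159 to 0.312 in Trpv1 libraries. Neither ratio overlapped between the populations. The ratio of Basp1 to Gap43 overlapped, at 0.537 to 1.03 in Sst libraries, against 0.360 to 0.833 in Trpv1 libraries.

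Among the transcription factors, Atf3 and Jun were counted in every library of both populations and did not pass the test between them. Atf3 (chromosome 1, 191170296 to 191218039, minus strand), a stress-induced factor that is a standard marker of axotomized sensory neurons, stood at 96.1, 66.6, 91.7 and 99.3 CPM in Sst replicates 1 to 4 and at 34.0, 71.9, 44.8 and 80.7 CPM in Trpv1 replicates 1 to 4. The Sst libraries were the more uniform, and their lowest library lay below the 2 highest Trpv1 libraries, replicates 2 and 4. The log2 fold change was 0.62 (SE 0.313, edgeR adjusted p = 0.273), and it lay between 0.29 and 0.84 over the alternatives, none of which called it (adjusted p from 0.137 to 0.762).

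Jun (chromosome 4, 95049034 to 95052222, minus strand) stood at 174, 323, 204 and 209 CPM in Sst replicates 1 to 4 and at 265, 306, 201 and 206 CPM in Trpv1 replicates 1 to 4. Replicate 2 was the highest library in both populations, and the ranges nearly coincided. Its log2 fold change was -0.10 (SE 0.234, edgeR adjusted p = 0.857), and the sign turned without Sst replicate 1 or Trpv1 replicate 2, when Xist was a covariate and when the fit used the Xist-positive libraries alone. The antisense gene Junos shares 232 exonic bases with Jun; it held at most 87 counts in a library, and the sources used here do not state if strand was used in counting. Within libraries, Atf3 had 0.206 to 0.552 counts per count of Jun in Sst libraries, against 0.129 to 0.391 in Trpv1 libraries.

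Sox11 (chromosome 12, 27334264 to 27342574, minus strand), a SOX factor of developing and regenerating neurons, stood at 14.7, 11.1, 13.3 and 17.3 CPM in Sst replicates 1 to 4 and at 25.5, 24.7, 45.7 and 62.8 CPM in Trpv1 replicates 1 to 4. The groups did not overlap, and the Trpv1 libraries fell into 2 lower ones (replicates 1 and 2, those with Y-linked counts) and 2 higher ones (replicates 3 and 4, those with Xist). The log2 fold change was -1.49 (SE 0.445, edgeR adjusted p = 0.0459). This call stood close to the threshold and was kept in 9 of 20 alternatives. It was lost without any of Sst replicates 1, 2, 3 or 4 (adjusted p = 0.102, 0.108, 0.113 and 0.0523) and without Trpv1 replicates 3 or 4 (0.114 and 0.168), as well as with limma voom (0.0841) and with the earlier quasi-dispersion estimator of edgeR (0.0714), and it passed with DESeq2 (0.00948). It also passed with Xist as a covariate (log2 fold change -1.94, adjusted p = 0.0205) and in the 6 libraries that hold Xist (-1.92, 0.0368); the part of sex in the Trpv1 values was not tested. Over all alternatives the log2 fold change stayed between -2.01 and -1.15.

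**Figure D2:**
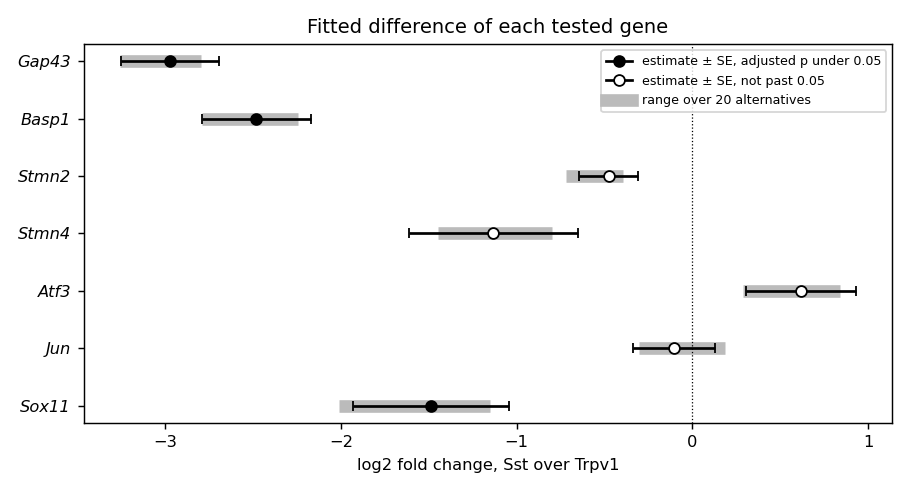
Log2 fold change of Sst over Trpv1 for each tested gene, with its SE as a bar, filled points where the edgeR adjusted p was under 0.05 and a grey band for the range over 20 alternatives. The bands of Gap43 (-3.26 to -2.80) and Basp1 (-2.79 to -2.25) lie far from 0, and that of Jun (-0.30 to 0.18) crosses it.

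The 3 genes best known as off in intact neurons were at or near 0. Npy (chromosome 6, 49822710 to 49829507, plus strand) held 0 counts in all 8 libraries, which allows up to 0.272 to 0.384 CPM per library at 3 counts, for counting error alone. Sprr1a (chromosome 3, 92483952 to 92485895, minus strand), a small proline-rich protein of the cornified envelope and of regenerating axons, held 0 counts in the 4 Sst libraries and in Trpv1 replicates 1, 2 and 3. Trpv1 replicate 4 held 37 counts of it, or 3.93 CPM. Ecel1 (chromosome 1, 87147655 to 87156521, minus strand) held 1, 10, 0 and 15 counts in Sst replicates 1 to 4 and 25, 1, 2 and 0 counts in Trpv1 replicates 1 to 4. In both populations 3 of 4 libraries held Ecel1 counts, and none passed 2.59 CPM. The protocols name no molecular identifiers, so a number of reads may stand for fewer molecules.

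Npy is also known as a transmitter of sympathetic neurons, whose markers summed to 0.635 to 8.62 CPM in Sst libraries, against 1.27 to 9.59 CPM in Trpv1 libraries, with Dbh, the enzyme that makes noradrenaline, among those at 0 counts in every library. Trpv1 replicate 4, the library with Sprr1a, was at 80.7 CPM of Atf3 and 62.8 CPM of Sox11, the highest of the Trpv1 libraries for both. Its Gap43 and Jun, at 376 and 206 CPM, lay within the range of the other Trpv1 libraries.

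Per kilobase of merged exons, which allows a rough comparison of genes with each other, the order of levels differed between the populations. In the Sst libraries Stmn2 led with 127 ± 16.0 CPM per kilobase, followed by Jun at 71.3 ± 20.5, Atf3 at 41.0 ± 6.91, Gap43 at 30.9 ± 12.7, Basp1 at 17.7 ± 7.75, Stmn4 at 7.38 ± 4.32 and Sox11 at 1.70 ± 0.314. In that order the libraries of Atf3 and Gap43, Gap43 and Basp1, Basp1 and Stmn4, and Stmn4 and Sox11 overlapped, while those of Stmn2, Jun and Atf3 did not. In the Trpv1 libraries Gap43 led with 242 ± 48.2 CPM per kilobase, followed by Stmn2 at 177 ± 24.1, Basp1 at 99.2 ± 22.6, Jun at 76.6 ± 15.7, Atf3 at 26.9 ± 10.2, Stmn4 at 16.1 (13.7 to 18.4) and Sox11 at 4.77 ± 2.20. There only the neighbours Basp1 and Jun, and Atf3 and Stmn4, overlapped. On this measure Gap43 was in place 4 in the Sst libraries and in place 1 in the Trpv1 libraries. Its place above Stmn2 rests on merged lengths of 1523 bases for Gap43 and 5602 for Stmn2. In CPM, Stmn2 was above Gap43 in the Trpv1 libraries too, at 990 against 369. Merged exons join those of all annotated transcripts of a gene, so the length can exceed that of the transcript made. Exon lengths are those of GENCODE M21, which may not be the annotation behind the counts.

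**Figure D3:**
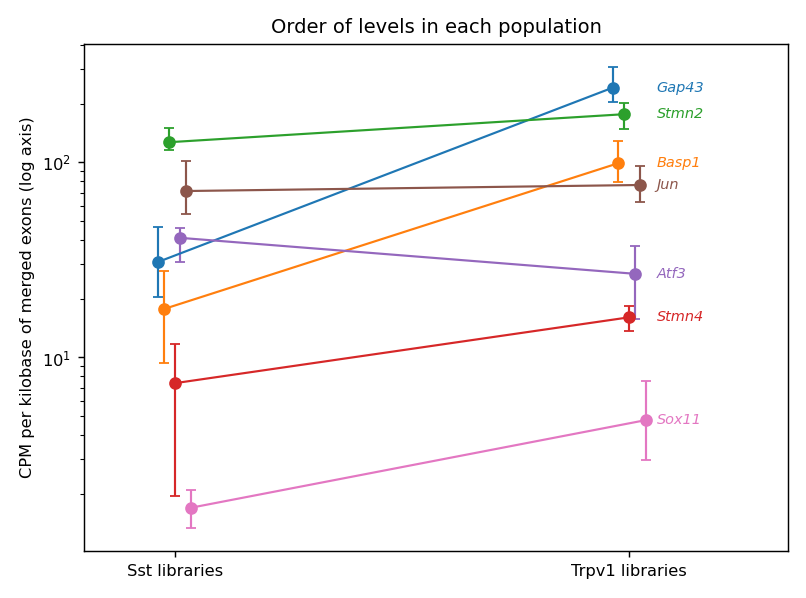
Mean CPM per kilobase of merged exons (log axis) of the 7 tested genes in the Sst and the Trpv1 libraries, with bars from the lowest to the highest of 4 libraries and a line joining the means of a gene. The lines of Gap43 (30.9 and 242 CPM per kilobase) and Basp1 cross those of Atf3 and Jun, and Gap43 crosses Stmn2.

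The neurons were dissociated before picking, and the spread between libraries of a population was therefore read gene by gene. The within-group SD of log2 CPM was 0.19 for Stmn2, 0.34 for Jun, 0.45 for Atf3, 0.46 for Gap43, 0.50 for Sox11, 0.52 for Basp1 and 0.82 for Stmn4. The median over all genes tested was 0.79, and 0.50 over the 5928 genes whose mean log2 CPM was 4 or more, a level that all 7 genes exceed. Stmn2 was among the most even genes of the table, at percentile 1.5, and Jun stood at percentile 11.7. Gap43, Atf3, Sox11 and Basp1 stood between percentiles 22.5 and 28.5, and Stmn4 at 52.3. These percentiles are over all genes tested, without matching for level, and the more abundant genes had the lower median spread. Against that median of 0.50, Sox11 (0.50) was about level, and Basp1 (0.52) and Stmn4 (0.82) were above it. Stmn2, at a mean log2 CPM of 9.73, was not compared with genes of its own level.

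The spread was not shared evenly between the populations. Atf3 and Sox11 varied less among the Sst libraries (SD of log2 CPM 0.27 for each) than among the Trpv1 libraries (0.58 and 0.66), while Gap43, Basp1 and Stmn4 varied more among the Sst libraries (0.59, 0.66 and 1.14) than among the Trpv1 libraries (0.28, 0.32 and 0.23). These differences in spread were not tested. Of the 14 sets of 4 libraries, 0 held a library set apart by the 95% limit of Dixon's test. The largest ratio between libraries of a group was 6.01, for Stmn4 in the Sst libraries, and the largest for Atf3 and Jun were 2.37 and 1.86.

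**Figure D4:**
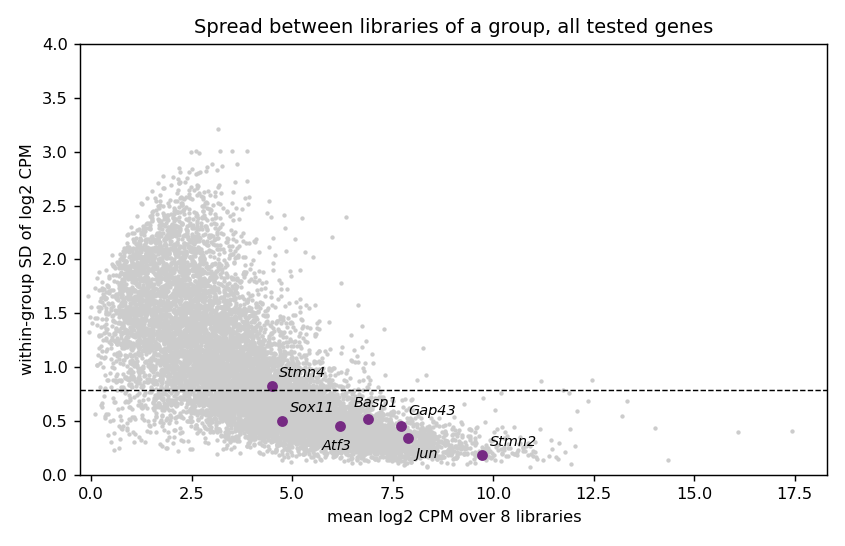
Within-group SD of log2 CPM against mean log2 CPM over 8 libraries for the 11828 tested genes (grey), with the 7 genes in purple and a dashed line at the median of all tested genes (0.79). Stmn2 (0.19) lies near the lower edge, and Stmn4 (0.82) is the 1 gene of the 7 above the line.

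Genes related to the set were taken from 4 lists, with 87 tested genes in all that are not among the 10. In edgeR 2 of them were called higher in Sst, 12 were called lower and 73 did not pass, a share of 16.1% called where 6.35% of all genes were. Their median log2 fold change was -0.28, against 0.01 over all genes tested. In the 6 libraries with Xist 9 were lower and 0 were higher, and in the 4 libraries without pituitary counts 1 was lower, Adcyap1, and 0 were higher.

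In the list of growth cone and axon cytoskeleton genes, 8 of 24 tested members were lower in the Sst libraries and 0 were higher. That is a share of 33.3% called where 6.35% of all genes were, with a median log2 fold change of -0.40. DESeq2 and limma voom each called 8 lower and 0 higher, and unadjusted, edgeR gave 10 lower and 1 higher. The 8 were Dclk1, Chl1, Ncam1, Stmn1, Nrn1, Mapt, Marcks and Gpm6a, and in the libraries with Xist 6 passed; in the 4 libraries without pituitary counts 0 passed. Gpm6a, a membrane glycoprotein gene named after its values were seen, was also lost without Sst replicates 3 or 4 and without Trpv1 replicates 3 or 4 (log2 fold change -2.20 in the full set and -2.26 to -1.82 in those fits, adjusted p from 0.0535 to 0.0724). Dclk1, a kinase that binds microtubules, stood at 82.8 ± 9.20 CPM in Sst libraries, against 381 ± 84.5 CPM in Trpv1 libraries (log2 Sst/Trpv1 -2.20, SE 0.231, edgeR adjusted p = 8.60e-07). The cell adhesion genes Chl1 and Ncam1 stood at 55.1 ± 25.4 and 48.1 ± 33.0 CPM in Sst libraries, against 260.2 ± 65.0 and 235 ± 21.4 CPM in Trpv1 libraries. Nrn1, which encodes the neurite outgrowth protein neuritin, and Mapt, which encodes tau, had log2 fold changes of -1.44 and -0.96. Map1b, the most abundant of the list and a microtubule protein of growing axons, stood at 21007 ± 1016 CPM in Sst libraries, against 20768 ± 2594 CPM in Trpv1 libraries (log2 Sst/Trpv1 0.02, edgeR adjusted p = 0.949).

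In the list of injury and growth transcription factors, 1 of 22 tested members was lower in the Sst libraries and 0 were higher, a share of 4.55% called where 6.35% of all genes were, with a median log2 fold change of -0.26 (DESeq2 and limma voom each called 2 lower and 0 higher; unadjusted, edgeR gave 4 lower and 0 higher). The lower gene was Klf7, a Krüppel-like factor known to promote axon growth, at 1047 ± 243 CPM in Sst libraries, against 1580 ± 167 CPM in Trpv1 libraries (log2 Sst/Trpv1 -0.59, SE 0.171, edgeR adjusted p = 0.0366). That call was kept in 7 of 20 alternatives (adjusted p from 0.00289 to 0.646). It was lost with the earlier quasi-dispersion estimator (0.0689) and with each single library left out except Sst replicate 4, with log2 fold changes of -0.62 to -0.49. The partners of JUN in AP-1 did not pass. Fos stood at 45.7 ± 13.1 CPM in Sst libraries, against 54.0 ± 2.44 CPM in Trpv1 libraries, and Fosb at 132 ± 55.5 CPM in Sst libraries, against 132 ± 39.4 CPM in Trpv1 libraries. Stat3, which carries injury signals of cytokines to the nucleus, stood at 413 ± 28.9 CPM in Sst libraries, against 426 ± 39.3 CPM in Trpv1 libraries. Over the list, log2 fold changes ran from -1.57 (Ddit3) to 0.84 (Atf5), and neither of these passed.

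In the list of injury-induced peptides, receptors and effectors, 3 of 18 tested members were lower in the Sst libraries and 0 were higher. That is a share of 16.7% called where 6.35% of all genes were, with a median log2 fold change of -0.33. DESeq2 called 3 lower and 1 higher, and unadjusted, edgeR gave 5 lower and 1 higher. Gal, the precursor gene of galanin, held 2 counts over the Sst libraries, both in replicate 1, and 1217 counts over the Trpv1 libraries. The ratio of pooled counts scaled by library size, Trpv1 over Sst, was 718. Its 95% interval of 198 to 5934 covers counting error alone and leaves out the variation between libraries. The edgeR fit gave a log2 fold change of -9.13 (SE 1.27, adjusted p = 6.94e-05), or 562-fold more in Trpv1. Without Sst replicate 1 the Sst libraries held 0 counts of it, and the size of the fold rests on that library. Adcyap1, which encodes PACAP, stood at 2.81 ± 2.23 CPM in Sst libraries, against 233 ± 28.1 CPM in Trpv1 libraries (edgeR adjusted p = 1.78e-10). Cacna2d1, a calcium channel subunit, stood at 141 ± 46.9 CPM in Sst libraries, against 431 ± 87.4 CPM in Trpv1 libraries (log2 Sst/Trpv1 -1.61, edgeR adjusted p = 9.00e-05). Gal and Adcyap1 are also known as markers of uninjured peptidergic neurons, and 11 of the 29 listed genes, among them Vip, Reg3b, Csrp3 and Il6, did not pass the filter on counts.

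In the list of immediate early and dissociation stress genes, 2 of 31 tested members were higher in the Sst libraries and 0 were lower, with a median log2 fold change of -0.10, a share of 6.45% called, near the 6.35% of all genes (DESeq2 called 3 higher and 2 lower, and limma voom 1 higher and 1 lower; unadjusted, edgeR gave 5 higher and 2 lower). The 2 genes, Dnajb1 and Hsph1, encode chaperones. Dnajb1 stood at 310 ± 67.0 CPM in Sst libraries, against 157 ± 31.8 CPM in Trpv1 libraries (log2 Sst/Trpv1 0.97, SE 0.231, edgeR adjusted p = 0.0108), and Hsph1 at 757 ± 64.9 CPM in Sst libraries, against 484 ± 84.9 CPM in Trpv1 libraries (log2 Sst/Trpv1 0.64, SE 0.180, edgeR adjusted p = 0.0312). In the libraries with Xist neither passed (adjusted p = 0.0928 for Dnajb1 and 0.0733 for Hsph1). Hsph1 also failed to pass when Sst replicate 1, 2 or 3 was left out, or Trpv1 replicate 2, 3 or 4, with log2 fold changes of 0.55 to 0.70 (adjusted p from 0.0520 to 0.0863). Egr1, an immediate early gene of many stimuli, stood at 171 ± 74.9 CPM in Sst libraries, against 193 ± 72.4 CPM in Trpv1 libraries and did not pass. Other genes of the list that did not pass differed more. The log2 fold changes of the list ran from -1.82 (Nr4a1) to 2.68 (Ier5), and neither of these passed.

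**Figure D5:**
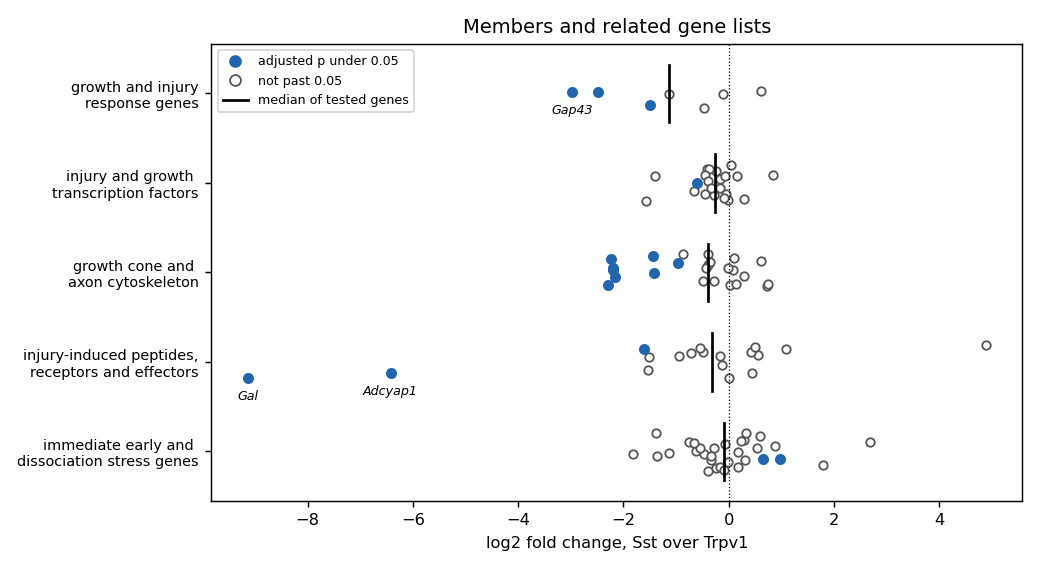
Log2 fold change of Sst over Trpv1 for the 7 tested growth and injury response genes and for the tested members of 4 related lists, filled where the edgeR adjusted p was under 0.05, with a line at the median of each list. The filled points of the cytoskeleton list all lie below 0, and those of the stress list both lie above it.

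The summed levels of 3 sets of neuron class markers had no overlap between the populations. Even full separation gave an adjusted p above 0.05 over these lists, so none of the sums could pass that test here. Gene by gene, edgeR called 9 of 9 myelinated markers higher in Sst and 5 of 5 peptidergic markers lower. It called 2 of 6 NP3 markers higher. The share called over all genes was 6.35%. The summed CPM of 9 markers of myelinated neurons was 4318 to 7694 in Sst libraries, against 2055 to 3130 in Trpv1 libraries, that of 5 markers of peptidergic nociceptors 43.0 to 122 in Sst libraries, against 1864 to 2585 in Trpv1 libraries, and that of 6 markers of the NP3 itch class 1606 to 3296 in Sst libraries, against 1042 to 1206 in Trpv1 libraries. The populations did not overlap in these 3 sums or in that of 7 general sensory neuron markers (5120 to 5986 CPM in Sst libraries, against 2829 to 3501 CPM in Trpv1 libraries; two-sided exact permutation p = 0.0286 in each case, the smallest that 4 against 4 allow, adjusted p = 0.0643 over 9 lists). Most of the difference in the sensory neuron sum came from Snap25, at 4052 ± 372 CPM in Sst libraries, against 2000 ± 271 CPM in Trpv1 libraries, the 1 gene of the 7 that was called (edgeR), and the median log2 fold change of that list was 0.14. Nefm carried most of the myelinated sum in both populations, at 4188 ± 1000 CPM in Sst libraries, against 2167 ± 371 CPM in Trpv1 libraries. The median log2 fold change of the 9 myelinated markers was 3.90, so their sum understates the difference of most of them. Osmr carried the largest part of the NP3 sum in both populations, at 950 ± 431 CPM in Sst libraries, against 575 ± 55.7 CPM in Trpv1 libraries. Its groups overlapped, it did not pass (edgeR adjusted p = 0.0568), and it stood at 1573 CPM in Sst replicate 4. Adcyap1 stands in both the peptidergic list and the effector list. The part of these class differences in the values of Gap43, Basp1 and Sox11 was not tested.

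Glia also make Jun, Atf3 and Gap43 under stress. Markers of satellite glia, all 10 of them counted, summed to 718 to 1162 CPM in Sst libraries, against 501 to 960 CPM in Trpv1 libraries (exact permutation p = 0.400, adjusted p = 0.514). Markers of Schwann cells, all 8 counted, summed to 412 to 671 CPM in Sst libraries, against 604 to 809 CPM in Trpv1 libraries (exact permutation p = 0.114, adjusted p = 0.206), and those of fibroblasts, endothelium, immune cells and blood to 75.7 to 384 CPM in Sst libraries, against 70.2 to 308 CPM in Trpv1 libraries (exact permutation p = 0.971). In edgeR, 1 of 10 satellite glia markers was called higher in Sst, S100b, and 0 lower, a share of 10.0% where 6.35% of all genes were. Their log2 fold changes ran from -1.20 to 1.66, so the sum joins differences of opposite sign. Of 5 tested Schwann markers 0 were called. At an unadjusted p under 0.05 edgeR gave 3 of the 10 satellite and 2 of the 5 Schwann markers. The part of glia and these other cells in the values of Jun, Atf3 and Gap43 was not tested. Pituitary hormone genes summed to 0.0907 to 457 CPM in Sst libraries, against 0 to 1750 CPM in Trpv1 libraries (exact permutation p = 0.143, adjusted p = 0.214). Their part in the values was not tested.

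The 3 genes whose profile over the 8 libraries lay nearest to that of Gap43, by the mean absolute difference of centred log2 CPM among 8001 genes whose mean log2 CPM was 3 or more, were Zeb2 (0.31), Nfib (0.38) and Basp1 (0.41). Zeb2, a zinc finger transcription factor, stood at 51.7 ± 13.7 CPM in Sst libraries, against 359 ± 85.8 CPM in Trpv1 libraries, and Nfib, a nuclear factor I gene, at 7.04 ± 2.14 CPM in Sst libraries, against 58.7 ± 15.3 CPM in Trpv1 libraries. For Atf3 the nearest were Mgat5 (0.14), a glycosyltransferase gene, Ptpn13 (0.14), a phosphatase gene, and Cuta (0.14). Mgat5 stood at 87.4 to 153 CPM in Sst libraries, against 51.2 to 88.8 CPM in Trpv1 libraries, and none of the 3 passed between the populations in edgeR (adjusted p = 0.0984, 0.735 and 0.578). All these genes were picked for their likeness to Gap43 or Atf3 in the same libraries. Their differences between the populations follow from that choice and give no independent support.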

How the data were processed

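What the authors deposited is a single table of raw counts (integer reads per gene symbol) covering the 8 samples. Per the submitters' processing notes, bcl2fastq 2.17, Trimmomatic 0.33 and featureCounts were used, with the build GRCm38; the sources used here name no aligner, no annotation and no strand setting. Each column name equalled a sample's label, and 0 columns stayed unused. Per the labels' protocols, PicoPure RNA was turned into cDNA and amplified by NuGEN's Ovation V2 chemistry before Nextera XT libraries were made. Amplification from few cells can add spread to scarce transcripts.

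Counts were scaled by TMM, genes were kept with the edgeR expression filter at a minimum count of 10, and Sst was tested against Trpv1 by quasi-likelihood (edgeR 4.0.16 under R 4.3.3), with group as the sole term, robust dispersions and the newer of edgeR's quasi-dispersion estimators. That estimator was taken to match an earlier analysis of the series, after both had been seen. P-values were two-sided and adjusted over all 11828 genes tested, with a threshold of 0.05. Each SE is the absolute log2 fold change divided by the square root of F. For log2 CPM, 2 was the prior count. The fit was tested on simulated data. Positions and exon lengths are from GENCODE M21 on GRCm38. Gene lists were summarised by counts and medians beside those of all genes. Marker sums were compared by exact permutation. Named genes were the 10 genes, for each related list at most 6 called genes in order of p, the nearest profiles of Gap43 and Atf3, and others where said. Map1b, Fos, Fosb, Stat3 and Egr1 also fall outside that rule and are examples of genes that did not pass. The genes, the lists and the motifs were chosen with earlier results of these data known, and a list gives no independent support. The samples are called independent in the labels. No 2 libraries of a group agreed within sampling noise (chi-square per degree of freedom from 40.0 to 100.0 over 12 pairs). Alternatives were other size factors, filters, dispersion estimates, DESeq2 1.42.0, limma 3.58.1 voom with sample weights, the replicate number as a block, each library left out, and fits that account for Xist or pituitary counts. Chosen after seeing the data were a fit without mitochondrial genes and one with the earlier quasi-dispersion estimator of edgeR.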

Additional observations from a re-analysis of the deposited data

How the results depend on the processing

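Gap43 kept its direction and its call in all 20 alternatives, and Basp1 in all but the 4 libraries without pituitary counts, where 1 of the 3 members remained called lower, 1 related gene was lower and 0 were higher, and 52 genes of the whole table were called. That fit rests on 1 Trpv1 library, which is assumed to vary like the Sst libraries. Against 751 genes called over the whole table, 493 were called with the earlier quasi-dispersion estimator (Sox11 and Klf7 not among them), 435 with a term for Xist, 305 in the libraries with Xist, and 452 to 747 with single libraries left out (452 without Sst replicate 3, 487 without Trpv1 replicate 3 and 500 without Sst replicate 1). The 2 related genes called higher became 4 without a filter or with DESeq2, 1 with a term for Xist, with limma voom or with the replicate block, 0 in the libraries with Xist, and 1 to 3 with single libraries left out. The causes were not tested. Jun, which was not called, turned sign with a term for Xist (log2 fold change 0.16) and in the libraries with Xist (0.18), and ran from -0.30 to 0.04 with single libraries left out; Ptpn13, also not called, turned to -0.33 in the libraries without pituitary counts.

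The labels say that each picking session gave 1 sample per genotype, but not that the replicate number marks the session, and same-numbered samples did not deviate together (r from -0.03 to 0.03 across genes for 4 pairs). With the replicate block edgeR called 572 genes, 2 members lower, as Sox11 did not pass (adjusted p = 0.0806), and 11 related genes lower. Scarce transcripts are limited by depth: 3 counts correspond to 0.272 to 0.384 CPM.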

Other observations

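Of the 87 related genes tested, 17 had no overlap between the populations, where 11.1% of all genes tested had none. Of the 87, 14 were called, a share of 16.1% where 6.35% of all genes were. The other 3, named after their values were seen, were Ier3, Klf6 and Hspa8. Ier3, an immediate early gene of survival signalling, stood at 26.6 ± 17.9 CPM in Sst libraries, against 7.83 ± 1.55 CPM in Trpv1 libraries (edgeR adjusted p = 0.0640). Klf6, a Krüppel-like factor linked to axon growth, stood at 125 ± 20.9 CPM in Sst libraries, against 198 ± 31.7 CPM in Trpv1 libraries (edgeR adjusted p = 0.0934). Hspa8, a constitutive chaperone gene, stood at 1195 to 1353 CPM in Sst libraries, against 897 to 1170 CPM in Trpv1 libraries (edgeR adjusted p = 0.243).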
